A study of Mus musculus with 6 samples.

Results

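Transcripts of the leukotriene and lipoxygenase pathway were followed in macrophages that lacked the scavenger receptor MSR1. The 9 genes, out of 52550 in the deposited table, were taken by symbol: Pla2g4a, Alox5ap, Alox5, Lta4h, Ltc4s, Alox15, Ephx2, Fpr1 and Fpr2. Bone marrow cells of C57BL/6 mice were grown with 25 ng/ml M-CSF for 7 days, which yields bone marrow-derived macrophages, and were then kept for 48 h in a transwell with bone marrow mesenchymal stem cells (BMSCs). The MSR1 KO group (n = 3 libraries) came from MSR1-deficient mice and the MSR1 WT group (n = 3 libraries) from mice with an intact gene. Both groups shared the strain, the growth factor and the co-culture, so the effect of the BMSCs themselves could not be measured. The study calls the libraries biological replicates, but the labels name no mice, and the p-values measure the spread between these libraries.

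Leukotrienes are lipid mediators made from arachidonic acid. Cytosolic phospholipase A2 frees the acid from membranes, FLAP presents it to 5-lipoxygenase, and the resulting leukotriene A4 (LTA4) is turned into the neutrophil attractant LTB4 or joined to glutathione to form the cysteinyl leukotrienes. Other lipoxygenases and FPR2, a formyl peptide receptor that also binds lipoxins and annexin A1, belong to the branches that can limit inflammation. Soluble epoxide hydrolase breaks down the epoxides of arachidonic acid, and FPR1 is a receptor for bacterial formyl peptides.

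The libraries held 36143518 to 47417448 counts, and 3 counts, the limit that a count of 0 allows, stood for 0.0633 to 0.0830 CPM. This limit covers counting error only, whereas the intervals of fold changes come from the fit and include the spread between libraries. Levels are given as CPM, that is counts scaled to library size with TMM factors, and differences as the log2 fold change of KO over WT with its standard error (SE). Msr1 fell from 183, 193 and 223 CPM in WT to 59.0, 45.8 and 43.0 CPM in KO (log2 fold change -2.02, SE 0.14, adjusted p 0.0012).

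The cells carried macrophage RNA, with marker sums of 24462 to 25719 CPM in KO and 25058 to 27901 CPM in WT, led by Lyz2, Csf1r and Adgre1. Of 10 macrophage markers, all tested, Fcgr1 rose and Mrc1 fell at an adjusted p under 0.05. RNA of other lineages was also present. Of their marker sums, those of mast cells and basophils and of dendritic cells did not overlap between genotypes, and the others did. The 14 neutrophil markers, led by Csf3r, Ngp and S100a9, summed to 998 to 1421 CPM in KO and 694 to 1102 CPM in WT. None of the 14 was at 0, none passed the adjusted test of edgeR (5 had an unadjusted p under 0.05 and DESeq2 called 3), and all 14 had fitted values above 0. Over all tested genes, edgeR's adjusted test called 2.25% higher and 2.66% lower. At an unadjusted p under 0.05, 8.65% were higher and 10.2% lower, and the median log2 fold change was -0.0023. The 12 stromal markers, led by Col1a2, Col1a1 and Sparc, summed to 1511 to 2004 CPM in KO and 1977 to 2524 CPM in WT. Of these, 3 fell and none rose by edgeR's adjusted test, 6 were lower and 1 higher at an unadjusted p under 0.05, and DESeq2 called 5 lower and 1 higher. The higher gene was Thy1, named after its value was seen, at 2.47 times its WT level. Mast cell and basophil markers, led by Kit, Hdc and Mcpt8, summed to 38.1 to 39.9 CPM in KO and 18.4 to 29.3 CPM in WT, and Kit rose, while the mast cell proteases Mcpt4, Tpsb2 and Tpsab1 were at 0 counts in every library. Eosinophil markers, led by Ccr3, Prg2 and Siglecf, summed to 17.3 to 19.3 CPM in KO and 13.0 to 19.5 CPM in WT. Of 3 tested, Siglecf had every KO library below every WT library (log2 fold change -0.77, edgeR adjusted p 0.12), and 2 overlapped. Dendritic cell markers, led by Zbtb46, summed to 3.76 to 4.60 CPM in KO and 1.83 to 3.63 CPM in WT. Of 6 tested, Xcr1 and Ccr7 had every KO library above every WT library, and 4 overlapped. Zbtb46 was among the 4, with a log2 fold change of -0.53. B and T cell markers, led by Cd79b, summed to 19.1 to 23.5 CPM in KO and 16.2 to 20.3 CPM in WT, and erythroid markers stayed under 1 CPM. The part of these lineages in the results below was not tested.

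Of the 9 pathway genes, 8 passed the filter on low counts, and only Fpr2, the receptor for lipoxin and annexin A1, rose. At an adjusted p under 0.05 (edgeR's quasi-likelihood test with Benjamini-Hochberg adjustment) it was the single call, against a background of 2.25% of 16402 tested genes called higher and 2.66% called lower (4.91% in either direction). None of the 9 fell by that rule, and DESeq2 called none lower either, though it gave Ephx2 no adjusted p. At an unadjusted p under 0.05, Fpr1 and Fpr2 were higher and Ltc4s lower, where 8.65% of all tested genes were higher and 10.2% lower (18.9% in either direction). With the looser definition of the study (fold change above 1.5 and unadjusted p under 0.05), Fpr2 was higher and Ltc4s lower, where 3.59% and 5.05% of tested genes passed (8.64% in all). In 2 genes, Fpr1 and Fpr2, every KO library lay above every WT library, in Ltc4s every KO library lay below, and in the other 5 tested genes the groups overlapped. Over all tested genes the groups did not overlap in 25.5% (12.1% with KO above and 13.4% with KO below). In bulk RNA, fewer cells of one type and less RNA per cell cannot be told apart.

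**Figure D1:**
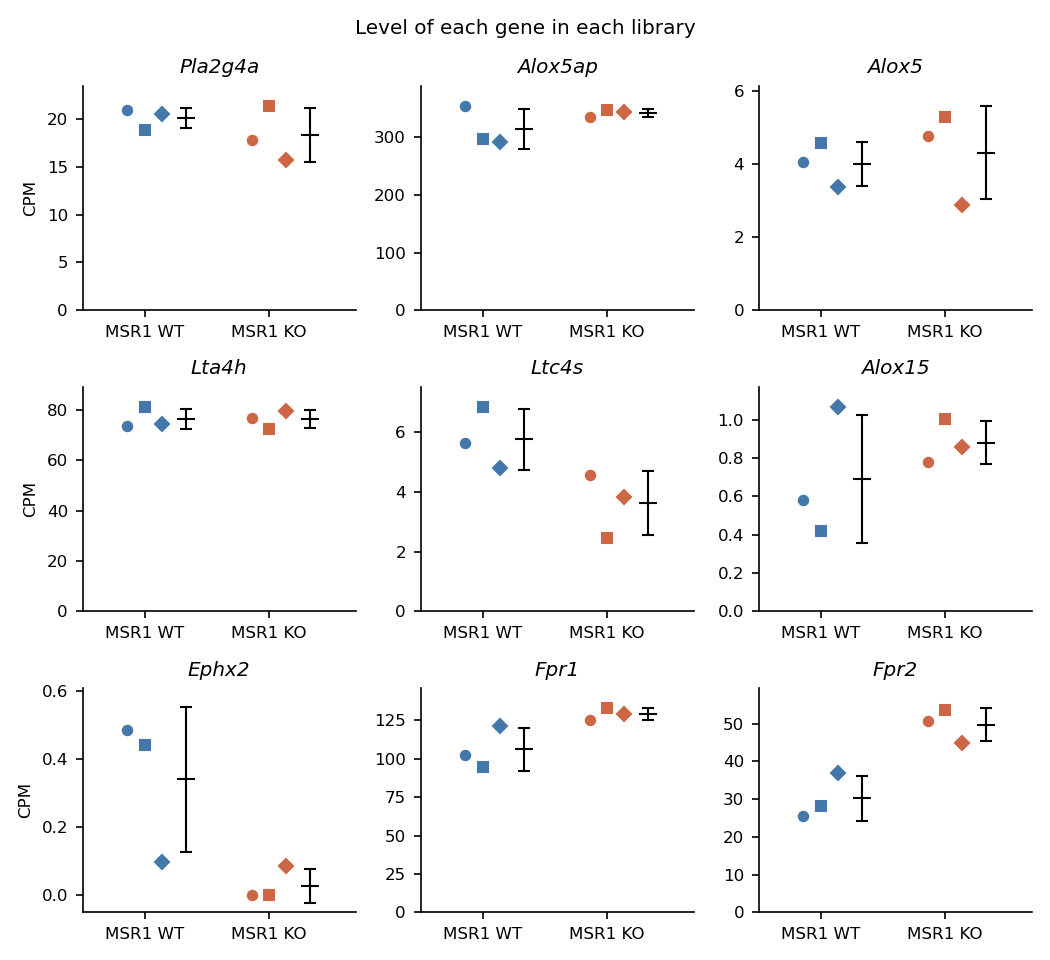
Level of each of the 9 genes in CPM (vertical axes, each including 0) in the 3 MSR1 WT (left) and 3 MSR1 KO (right) libraries, with the mean and SD as bars and replicates 1, 2 and 3 as circle, square and diamond. Fpr2 was at 44.9 to 53.5 CPM in KO and 25.6 to 37.0 CPM in WT, Ltc4s at 2.46 to 4.57 and 4.82 to 6.83 CPM, and the groups of Pla2g4a, Alox5ap, Alox5, Lta4h and Alox15 overlapped.

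**Figure D2:**
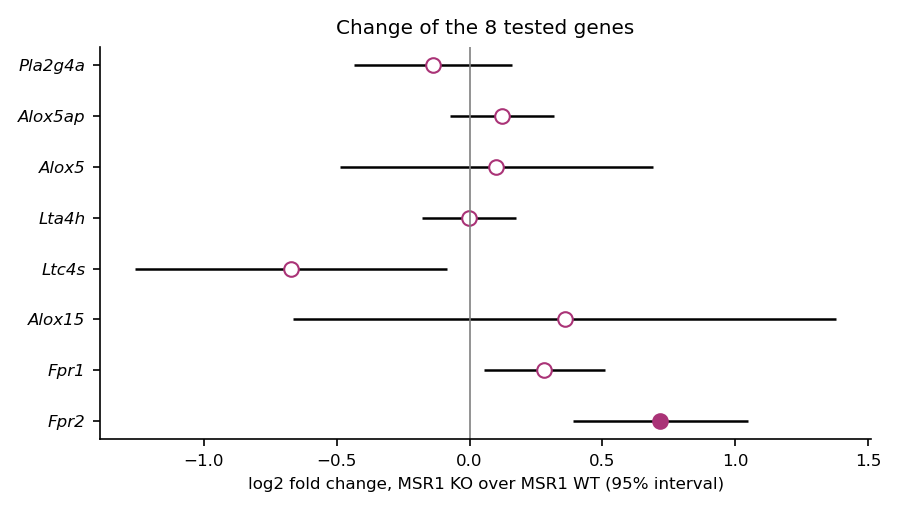
Log2 fold change of KO over WT (horizontal axis) with its 95% confidence interval for the 8 tested genes, where a filled point marks an adjusted p under 0.05. The interval of Fpr2 ran from 0.39 to 1.05 and its point alone is filled.

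Of the tested pathway genes Fpr2 gave the clearest contrast. The receptor genes are neighbours on chromosome 17 (GRCm38): Fpr1 (ENSMUSG00000045551.7, chr17:17876471-17883940, minus strand) and Fpr2 (ENSMUSG00000052270.7, chr17:17887824-17893952, plus strand). Their starts face away from each other across 3883 bases. Because both had their KO libraries above WT, the 250 bases before each start are shown from RefSeq (GRCm38.p6), read along the gene, with matches to any of 7 searched words in capitals. The Fpr2 sequence is chr17:17887574-17887823 on the plus strand and the Fpr1 sequence is chr17:17883940-17884189 on the minus strand.
Fpr2: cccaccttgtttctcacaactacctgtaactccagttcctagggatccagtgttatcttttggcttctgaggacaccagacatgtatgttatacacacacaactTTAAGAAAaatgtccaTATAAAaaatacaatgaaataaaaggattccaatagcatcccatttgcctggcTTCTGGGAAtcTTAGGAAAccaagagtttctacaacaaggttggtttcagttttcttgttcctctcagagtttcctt
Fpr1: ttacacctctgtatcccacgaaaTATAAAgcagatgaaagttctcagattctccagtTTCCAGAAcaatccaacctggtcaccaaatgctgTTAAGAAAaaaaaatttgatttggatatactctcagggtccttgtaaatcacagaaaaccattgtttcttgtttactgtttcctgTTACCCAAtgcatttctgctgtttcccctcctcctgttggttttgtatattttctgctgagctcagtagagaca
The words, searched on both strands, were TATAAA (in 12.4% of 32851 RefSeq promoters), GGGCGG (32.7%), GAGGAAGT (2.44%), TTNNGNAA (36.8%), TGANTCA (6.75%), the interferon-stimulated response element (2.98%) and TTCNNNGAA (7.02%). Both receptor sequences held TATAAA, beginning at position -130 from the start in Fpr2 and at -227 in Fpr1. Both also held forms of TTNNGNAA, the pattern of C/EBP factors, and Fpr2 alone of the pair held TTCNNNGAA, the pattern of STAT factors, beginning at position -77. In these sequences no match overlapped another. A match is a run of letters and was not read as a bound site.

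Fpr2 encodes a G protein-coupled receptor on phagocytes. It stood at 50.6, 53.5 and 44.9 CPM in KO replicates 1, 2 and 3 and at 25.6, 28.1 and 37.0 CPM in the WT replicates. The lowest KO library lay above the highest WT library, WT replicate 3. The mean ± SD was 49.7 ± 4.35 CPM in KO and 30.2 ± 6.03 CPM in WT (n = 3 libraries each). This gave a log2 fold change of 0.72 (SE 0.14, 95% confidence interval 0.39 to 1.05) or 1.64-fold, with an adjusted p of 0.032 by edgeR's quasi-likelihood test. The exact two-sided permutation test gave p = 0.1, the smallest that 3 against 3 libraries allow. The call rested on all libraries but WT replicate 3: the adjusted p by edgeR was 0.096 without KO replicate 1, 0.086 without KO replicate 2, 0.058 without KO replicate 3, and 0.12 without either WT replicate 1 or WT replicate 2. Without WT replicate 3 it was 0.0080, with a log2 fold change of 0.89. The direction was the same in each of these fits.

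**Figure D3:**
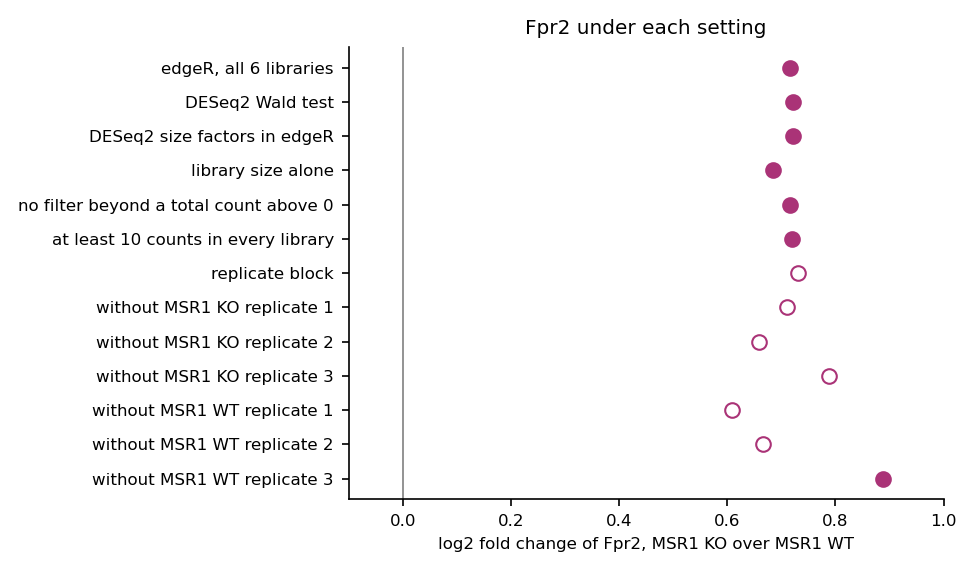
Log2 fold change of Fpr2 (horizontal axis, KO over WT) with all 6 libraries in edgeR, under each other way of processing and with each library left out, where filled points mark an adjusted p under 0.05. Values ran from 0.61 to 0.89, all above 0, and the point is open for the replicate block and for 5 of the 6 fits with a library left out.

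Reads of Fpr2 could be shared with close relatives, since 82 of its 1295 exonic words of 50 bases (6.33%) also occur in Fpr3. Fpr3, Fpr-rs3, Fpr-rs4, Fpr-rs6 and Fpr-rs7 were at 0 counts in every library.

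Fpr1, the high-affinity receptor for bacterial formyl peptides, was more abundant than Fpr2 per kilobase of exon, and stood at 125, 133 and 129 CPM in KO and 102, 94.5 and 122 CPM in WT. The groups did not overlap, though WT replicate 3 came close to KO replicate 1. The mean ± SD was 129 ± 3.72 CPM in KO and 106 ± 13.9 CPM in WT (n = 3 libraries each), and the log2 fold change was 0.28 (SE 0.099, interval 0.054 to 0.51) with an unadjusted p of 0.021 and an adjusted p of 0.17 by edgeR. The adjusted p was 0.044, with a log2 fold change of 0.39, without WT replicate 3. Within each library the log2 ratio of Fpr2 to Fpr1 counts was -1.31, -1.31 and -1.52 in KO and -2.00, -1.75 and -1.71 in WT, a comparison added after the values were seen. The ratios did not overlap, and their mean was higher in KO by 0.44 on the log2 scale. The exact permutation p was 0.1, the smallest possible, so this test could not pass 0.05. Neutrophils carry both receptors, and the neutrophil marker sums given above were higher on average in KO, with overlapping libraries.

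Among the enzymes that make leukotrienes, no gene passed the adjusted test. Pla2g4a (ENSMUSG00000056220.14, chr1:149829618-149961290, minus strand) encodes cytosolic phospholipase A2, which frees arachidonic acid. It was at 17.8, 21.3 and 15.7 CPM in KO and 20.9, 18.8 and 20.5 CPM in WT, so that KO replicate 2 was the highest library and KO replicates 1 and 3 the lowest. The log2 fold change was -0.14 (SE 0.13, interval -0.43 to 0.16, edgeR adjusted p 0.64).

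Alox5ap (ENSMUSG00000060063.9, chr5:149264767-149288153, plus strand) encodes FLAP, the membrane protein that hands arachidonic acid to 5-lipoxygenase, and was the most abundant of the 9 per kilobase of exon. Its level was 334, 347 and 344 CPM in KO and 353, 296 and 292 CPM in WT. WT replicate 1 was the highest library of all and the groups overlapped. The log2 fold change was 0.12 (SE 0.085, interval -0.073 to 0.32, edgeR adjusted p 0.50). Of its exonic bases, 13.3% lie opposite Gm19719 on the other strand, and Gm19719 stood at 21.1 ± 2.11 CPM in KO and 21.4 ± 7.08 CPM in WT.

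Alox5 (ENSMUSG00000025701.12, chr6:116410077-116461178, minus strand) encodes 5-lipoxygenase, the enzyme that commits arachidonic acid to leukotrienes. Its level was 4.76, 5.30 and 2.88 CPM in KO and 4.07, 4.57 and 3.39 CPM in WT, from 134 to 217 counts per library. Replicate 3 was the lowest library in both genotypes and the groups overlapped. The log2 fold change was 0.10 (SE 0.26, interval -0.49 to 0.69, edgeR adjusted p 0.89), and the interval covered changes of either sign.

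The enzymes that compete for LTA4 differed in their values. Lta4h (ENSMUSG00000015889.8, chr10:93453411-93484875, plus strand) encodes the hydrolase that forms LTB4. It stood at 77.0, 72.5 and 79.6 CPM in KO and 73.7, 81.1 and 74.6 CPM in WT, fully interleaved. The log2 fold change was -0.0018 (SE 0.077, edgeR adjusted p 0.99), with an interval of -0.18 to 0.17, the narrowest of the 8 tested genes among the 9. This value was too near 0 to have a direction, and its sign turned with the scaling.

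Ltc4s (ENSMUSG00000020377.15, chr11:50236461-50238616, minus strand) encodes leukotriene C4 synthase, which joins LTA4 to glutathione. It was at 4.57, 2.46 and 3.83 CPM in KO and 5.63, 6.83 and 4.82 CPM in WT. Each KO library lay below each WT library, with KO replicate 1 and WT replicate 3 closest to each other. The mean ± SD was 3.62 ± 1.07 CPM in KO and 5.76 ± 1.01 CPM in WT (n = 3 libraries each), and the log2 fold change was -0.67 (SE 0.26, interval -1.26 to -0.085) or 0.628 of the WT level. Its unadjusted p was 0.030 and its adjusted p 0.20 by edgeR, so the difference did not pass the test over all genes. Of its exonic bases, 26.4% lie opposite Gm26542, and Gm26542 was at 1.03 ± 0.387 CPM in KO and 1.45 ± 0.189 CPM in WT (log2 fold change -0.49, edgeR adjusted p 0.54). Reads of the pair cannot be told apart without a strand setting, which is not given in the sources used here.

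The log2 ratio of Ltc4s to Lta4h counts within a library, from which library scaling drops out, was -4.07, -4.87 and -4.37 in KO and -3.70, -3.57 and -3.95 in WT. The ratios did not overlap, with means of -4.43 ± 0.403 and -3.74 ± 0.193 (SD, n = 3 each). They differed by -0.70, with an exact two-sided permutation p of 0.1, the smallest possible, and by -0.88 to -0.48 with any library left out. Mast cells and basophils carry Ltc4s. Their marker sums were 38.1 to 39.9 CPM in KO and 18.4 to 29.3 CPM in WT. Of 6 tested markers, Kit and Hdc had every KO library above every WT library, and 4 overlapped. The part of these cells in the Ltc4s values was not tested.

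Alox15 (ENSMUSG00000018924.6, chr11:70344152-70352031, minus strand) encodes the lipoxygenase used for lipoxin and resolvin precursors. It was near the limit of these libraries, with 28, 40 and 40 counts in KO (0.780, 1.00 and 0.861 CPM) and 24, 20 and 44 counts in WT (0.582, 0.422 and 1.07 CPM). WT replicate 3 was above every KO library, and the log2 fold change of 0.36 (SE 0.44, interval -0.66 to 1.38, edgeR adjusted p 0.74) did not exceed the spread. The log2 ratio of Alox15 to Alox5 counts differed by 0.37 between genotypes (exact permutation p = 0.5) and the groups overlapped. Without WT replicate 2 that difference was -0.017.

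Ephx2 (ENSMUSG00000022040.8, chr14:66084374-66124500, minus strand) encodes soluble epoxide hydrolase, which breaks down the epoxides of arachidonic acid. It had 0, 0 and 4 counts in KO and 20, 21 and 4 counts in WT, and did not pass the filter. The highest KO library and the lowest WT library, both replicate 3, held the same count. The means were 0.0287 ± 0.0497 and 0.342 ± 0.213 CPM (SD, n = 3 each), and without the filter edgeR gave an unadjusted p of 0.036 and an adjusted p of 0.32. At this depth a change of Ephx2 could not be established.

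Per kilobase of exon, where levels of different genes can be compared, the 9 genes had the same order of mean level in both genotypes when the length was the union of exons. Over the longest transcript, Ltc4s and Pla2g4a changed places, at 8.04 and 5.81 CPM per kb in WT and 5.05 and 5.29 CPM per kb in KO. In WT, Alox5ap stood at 221 ± 24.2 CPM per kb, Fpr1 at 80.2 ± 10.5, Fpr2 at 23.3 ± 4.65, Lta4h at 12.5 ± 0.659, Ltc4s at 5.68 ± 0.998, Pla2g4a at 3.14 ± 0.168, Alox5 at 0.977 ± 0.145, Alox15 at 0.281 ± 0.137 and Ephx2 at 0.137 ± 0.0857 (SD, n = 3 each). FLAP transcripts thus lay far above those of 5-lipoxygenase, the enzyme it serves. Among neighbours in this order, the WT libraries overlapped for Alox15 and Ephx2 alone. In KO the overlap was between Ltc4s at 3.57 ± 1.05 and Pla2g4a at 2.86 ± 0.441 CPM per kb instead, and Fpr2 stood at 38.3 ± 3.36 CPM per kb.

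**Figure D4:**
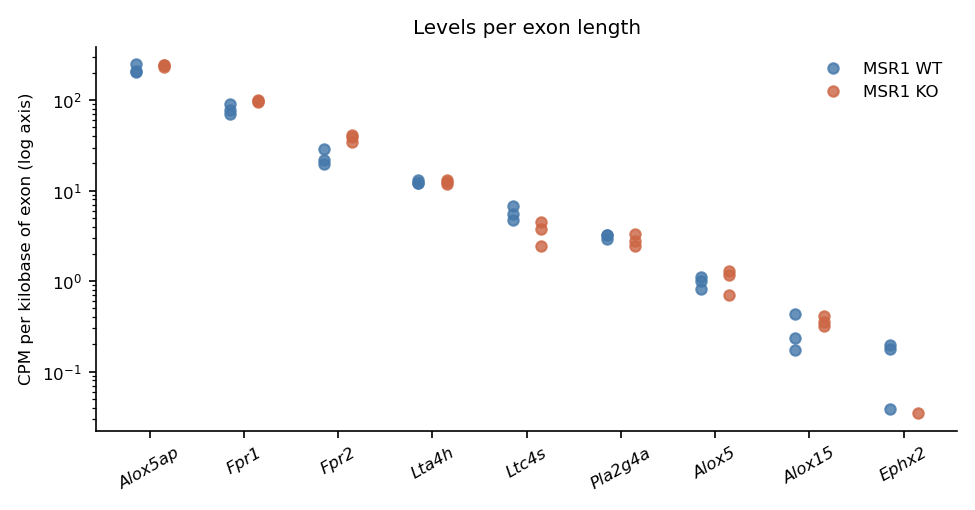
Level of each gene in CPM per kilobase of exon (log axis) for the 6 libraries, by genotype. Alox5ap lay highest at 221 (WT) and 241 (KO) on average and Ephx2 lowest, and the 2 KO libraries in which Ephx2 had no counts cannot be drawn on a log axis.

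The rest of the pathway was read from 8 lists of genes. Each is given by its counts at an adjusted p under 0.05 (edgeR) and its median log2 fold change. Over all 16402 tested genes, 2.25% were called higher and 2.66% lower, and the median was -0.0023. Upstream of arachidonic acid, 1 of 10 tested other phospholipases A2 rose and none fell (median 0.023). That gene was Pla2g16, a phospholipase and acyltransferase of fat and lens cells, at 18.1, 38.6 and 17.0 CPM in KO and 10.02, 8.43 and 10.7 CPM in WT. Its groups did not overlap, but KO replicate 2 was far above the other libraries. The log2 fold change of 1.34 (SE 0.30, edgeR adjusted p 0.048) became 0.85 without KO replicate 2 (adjusted p 0.037), and the adjusted p was 0.079 without KO replicate 1, 0.054 without KO replicate 3, 0.16 without either WT replicate 1 or WT replicate 2 and 0.082 without WT replicate 3. Of 10 tested genes that return arachidonate to membranes, edgeR and DESeq2 called none (median -0.038), and 3 had an unadjusted p under 0.05, as did 18.9% of all tested genes. The most abundant were Lpcat2 (log2 fold change 0.22, adjusted p 0.20) and Acsl5 (0.19, adjusted p 0.19). Of 9 partners and kinases of 5-lipoxygenase and cytosolic phospholipase A2, both tools called none (median 0.065), and 1 had an unadjusted p under 0.05. Their most abundant genes were Cotl1, whose coactosin-like protein binds 5-lipoxygenase (log2 fold change 0.065), and Mapkapk2, a kinase that phosphorylates it (0.21). Among other lipoxygenases, Alox12 (-0.37) and Aloxe3 (-0.16) were tested, with no unadjusted p under 0.05 and no call by either tool (median -0.26).

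Downstream of leukotriene synthesis, 3 of 17 tested genes of leukotriene conversion and breakdown fell and none rose (median -0.20), against 2.66% called lower and 2.25% called higher over all tested genes. At an unadjusted p under 0.05, 5 of the 17 were lower and none was higher, against 10.2% lower and 8.65% higher over all tested genes. DESeq2 called 4 lower, the fourth being Ptgr1, a reductase that inactivates LTB4 and was named after its value was seen. Abcc1, the exporter of leukotriene C4, fell from 207 ± 19.7 to 140 ± 9.46 CPM (log2 fold change -0.56, SE 0.090, adjusted p 0.020). Dpep1, a dipeptidase that turns leukotriene D4 into E4, fell from 14.5 ± 1.37 to 7.36 ± 1.40 CPM (-0.98, SE 0.17, adjusted p 0.023). Slco2a1, a prostaglandin transporter rather than a leukotriene enzyme, fell from 11.8 ± 2.41 to 5.67 ± 0.890 CPM (-1.05, SE 0.20, adjusted p 0.027). These 3 calls depended on single libraries in edgeR. The adjusted p of Abcc1 was 0.060, 0.051 and 0.052 without KO replicates 1, 2 and 3, and 0.077 and 0.057 without WT replicates 1 and 2. That of Dpep1 was 0.062 and 0.058 without KO replicates 1 and 3, and 0.088 and 0.060 without WT replicates 1 and 2. That of Slco2a1 was 0.086 and 0.071 without KO replicates 1 and 3, and 0.11 without WT replicate 1. In every one of these fits the genes stayed lower in KO. Of the leukotriene receptors, 3 of 6 were tested and none was called by edgeR or DESeq2 or had an unadjusted p under 0.05 (median 0.28). The most abundant was Cysltr1, a receptor for cysteinyl leukotrienes, at 82.8 ± 2.27 CPM in KO and 75.8 ± 9.38 CPM in WT (log2 fold change 0.13, edgeR adjusted p 0.56). Ltb4r1, the high-affinity LTB4 receptor, was at 4.79 ± 0.970 and 3.44 ± 2.11 CPM (0.48, adjusted p 0.58).

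Beside Ephx2, 1 of 4 tested epoxide hydrolases and epoxygenases fell and none rose (median -0.47), against 2.66% called lower and 2.25% called higher over all tested genes. Of the 23 listed, 17 had no counts. The gene that fell was Ephx1, the microsomal epoxide hydrolase, from 33.3 ± 4.67 to 20.1 ± 1.33 CPM (log2 fold change -0.73, SE 0.12, edgeR adjusted p 0.022). Its adjusted p was 0.081, 0.056 and 0.051 without KO replicates 1, 2 and 3 and 0.096 and 0.074 without WT replicates 1 and 2. Among the other formyl peptide and resolvin receptors and ligands, 1 of 6 tested genes fell and none rose (median 0.23), and 7 of 13 had no counts. By an unadjusted p under 0.05, as by DESeq2, Gpr18, a resolvin receptor named after its value was seen, was higher, while the other lists with a call had no gene moving the other way by either measure. The gene of this list that fell was Anxa1, which encodes annexin A1, a ligand of FPR2. It stood at 197, 189 and 207 CPM in KO and 370, 394 and 457 CPM in WT, far apart, with a log2 fold change of -1.04 (SE 0.090, edgeR adjusted p 0.0032). The ligand transcript was thus lower in KO and that of the receptor Fpr2 higher, and a link between them was not tested. Anxa1 passed the adjusted test under all 12 alternatives, including each library left out, with log2 fold changes of -1.11 to -0.95.

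**Figure D5:**
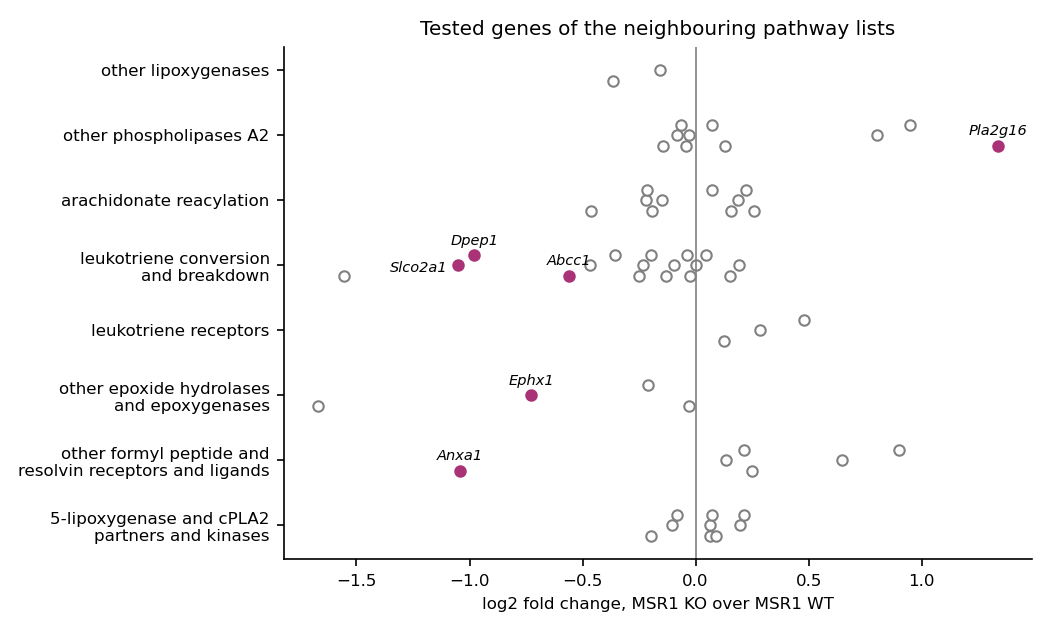
Log2 fold change of KO over WT (horizontal axis) for each tested gene of the 8 pathway lists, 1 row per list, with filled points for an adjusted p under 0.05. The filled points are Pla2g16 at 1.34 on the right, and Anxa1 at -1.04, Slco2a1 at -1.05, Dpep1 at -0.98, Ephx1 at -0.73 and Abcc1 at -0.56 on the left.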

How the data were processed

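RNA-seq of macrophages co-cultured with BMSCs covered 3 libraries of MSR1 KO and 3 of MSR1 WT cells. The submitters' processing notes name fastp 0.17.1, HISAT2 2.1.0, DESeq2 1.18.1 and R 3.4.3, whereas the methods of the study name TopHat and FPKM. The authors deposited raw counts per gene and library, together with a signal column per library that is the count divided by a constant for that library. Their log2 fold change, p-value and adjusted p-value columns were not used. Counting program, strand setting and genome build are not given in the sources used here. The coordinates matched GENCODE M21 (GRCm38) for 49035 gene identifiers, and all 9 pathway genes were among them. No value column was left unmapped (0). Spreadsheet software had turned 27 symbols into dates, of which 26 were restored, and where 1 symbol stood for several identifiers (89 symbols) the most abundant row was used.

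Counts were filtered with filterByExpr (minimum count 10), scaled by TMM and compared by the two-sided quasi-likelihood test (glmQLFit, glmQLFTest) in edgeR 4.0.16 (limma 3.58.1, R 4.3.3), and p-values were adjusted by Benjamini-Hochberg across the 16402 genes tested. Ratios of counts had 1 added to each count. CPM per kilobase used the union of exons. Alternatives were each library left out, a block for the replicate number, a stricter filter (10 counts in each library), no filter, scaling by library size only, DESeq2's size factors, and DESeq2 1.42.0 itself. The fit was tested on simulated data. Named genes were Msr1, the 9 pathway genes, the genes of each pathway list with an adjusted p under 0.05 (otherwise its 2 most abundant) and the most abundant markers of each cell type. Close relatives, antisense neighbours and the other markers were named after their values were seen. The pathway genes and lists were chosen with earlier results of these data known. Sequences are from RefSeq (GRCm38.p6), whose promoter table held 6 of the 9 genes.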

Additional observations from a re-analysis of the deposited data

How the results depend on the processing

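Fpr2 kept its direction in all fits but not its call. With the replicate number as a block its log2 fold change was 0.73 (adjusted p 0.087), and with 1 library left out it was 0.61 to 0.89. Deviations of same-numbered libraries had correlations of -0.026, 0.019 and -0.0048, and those of unlike numbers ran from -0.034 to 0.037. These values showed no pairing over all genes, but cannot exclude it for some genes. Under the block 0 of the 9 genes were higher by adjusted p. By the fold and p definition 0 were lower. Over all genes 59 were higher and 78 lower by adjusted p, and the lists of other phospholipases A2, leukotriene conversion and other epoxide hydrolases had 0 calls. With a library left out, 0 to 2 of the 9 were higher by adjusted p. By the fold and p definition 0 to 2 were lower, and 1 was higher in each of these fits and under the block. Fpr1 was at 0.20 to 0.39, Alox5 at -0.075 to 0.33, and the Alox15 to Alox5 ratio at -0.017 to 0.85. Alox15 was at 0.098 to 0.81, Pla2g4a at -0.26 to -0.032 and Alox5ap at 0.073 to 0.22. Calls over all genes were then 18 to 407 higher and 53 to 372 lower, and those lists had 0 to 1, 0 to 4 and 0 to 1. DESeq2 called 695 genes higher and 795 lower, 2 of the 9 lower by the fold and p definition (Ltc4s and Ephx2) and 1 higher gene, Gpr18, in the formyl peptide list. Without the filter 237 genes were higher and 288 lower, 2 of the 9 lower by the fold and p definition, and 0 phospholipases A2 higher, as with library size alone (0). Lta4h had values of 0.0028 (DESeq2), 0.0029 (its size factors), 0.00073 (at least 10 counts) and -0.029 to 0.042 with a library left out. Over the longest transcript instead of all exons, WT levels per kilobase were 250.8 (Alox5ap), 23.7 (Lta4h), 8.04 (Ltc4s) and 5.81 (Pla2g4a). In edgeR the Ephx2 value could be computed without the filter and with some libraries left out, not in the other fits. DESeq2 gave Ephx2 no adjusted p. For each of these the cause was not tested, beyond the fewer libraries of fits that leave one out. Ephx2, Alox15 and Ltc4s had 0 to 21, 20 to 44 and 98 to 324 counts per library. The part of depth in their spread was not tested.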
